A study of Rattus norvegicus with 3 samples.

Results

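Calb1, Calb2, Pvalb, S100b and S100a6 code for small proteins that bind calcium in the cytosol, and they are 5 of the 32623 genes in the deposited matrices. They were taken by symbol and each had 1 row (ENSRNOG00000007456, ENSRNOG00000016977, ENSRNOG00000006471, ENSRNOG00000001295 and ENSRNOG00000011647 in that order). Cells came from the cochlear basal membrane of untreated Sprague-Dawley rats, pooled over animals, at postnatal days 1, 7 and 14 (P1, P7 and P14), with a single 10x Genomics 3′ library at each stage. Barcodes with more than 500 genes and under 25% of their UMIs (unique molecular identifiers, counts of captured transcripts) on mitochondrial genes were kept, 31108 of 34927 in all, of which 13162 were from P1, 12664 from P7 and 5282 from P14. Each stage is 1 library without a replicate, so nothing was tested, and a difference between stages cannot be told apart from one between libraries. Levels are UMIs of a gene summed over cells per 1000000 UMIs of those cells (CPM), without correction for gene length, so they are compared between cells and stages and not between genes. Parentheses after a value hold its 95% interval, from the exact Poisson limits of a UMI count or the Clopper-Pearson limits of a cell share, which take in counting error and nothing else.

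All 5 proteins bind calcium through EF-hand motifs. Calb1 (calbindin-D28k), Calb2 (calretinin) and Pvalb (parvalbumin) are mobile buffers that shape calcium signals in neurons and sensory cells, and in the inner ear they are widely used to mark hair cells and spiral ganglion neurons. S100b and S100a6 (calcyclin) belong to the S100 family, whose members act as dimers that bind other proteins when calcium rises, and S100b is a classical marker of Schwann cells and cartilage. The question asked of these libraries was where each gene was found among neurons, hair cells, epithelium, stroma and glia, and how its level differed between stages.

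The cells were clustered without the 5 genes, which were otherwise all among the 2000 most variable ones, and the 31 clusters were grouped by marker genes. Neurons made up 490 cells, led by Stmn2, Snhg11 and Stmn3, and 482 of them were from P1, 1 from P7 and 7 from P14. The class held 227 cells with a mitochondrial limit of 10% and up to 761 at a clustering resolution of 1.2, and the log2 ratio of Pvalb was 5.77 and 5.89 there, beside 5.81 in the 490 cells. Hair cells made up 21 cells, all from P1, led by Acbd7, Calb1 and Pcp4, with 9 of 12 hair cell markers past 2-fold. Epithelium held 573 cells (285, 235 and 53 at P1, P7 and P14), led by Epcam, Epyc and Mia. Stroma held 19680 cells in 14 clusters, led by Ccn3, Otor and Crym, and glia 5699 cells in 4 clusters, with Egfl8 among the 3 leading genes. The labels name greater epithelial ridge cells, while epithelium was 1.84% of the kept cells and stroma 63.3%. The median kept cell had 6679 UMIs in the P1 library, 6902.5 in the P7 library and 1614.5 in the P14 library. Kept barcodes shared between libraries numbered 54 for P1 and P7, 16 for P1 and P14 and 19 for P7 and P14.

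RefSeq promoter windows (build GRCr8) were at hand for 3 of the 5 genes, Pvalb, S100b and S100a6. The 120 bases before the listed start are printed for each of them, whatever its level. Calb1 and Calb2 had no window in the reference used and are named only. The windows lie at chr7:111666290-111666409 on the minus strand for Pvalb, chr20:12381082-12381201 on the minus strand for S100b, and chr2:178398417-178398536 on the plus strand for S100a6. Capitals mark matches, on either strand, to the TATA box letters TATAA, to the GC box letters GGGCGG and to the CCAAT box.
Pvalb: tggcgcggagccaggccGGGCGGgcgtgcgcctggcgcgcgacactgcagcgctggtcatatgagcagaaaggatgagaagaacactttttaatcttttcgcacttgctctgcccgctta
S100b: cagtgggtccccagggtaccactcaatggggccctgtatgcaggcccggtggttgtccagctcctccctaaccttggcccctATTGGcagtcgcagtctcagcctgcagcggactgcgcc
S100a6: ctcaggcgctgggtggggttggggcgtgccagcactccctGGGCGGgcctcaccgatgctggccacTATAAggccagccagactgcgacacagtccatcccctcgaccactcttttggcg
The TATA box letters were found in the S100a6 window, the GC box letters in the Pvalb and S100a6 windows, and the CCAAT box, on the other strand, in the S100b window. Among 33469 promoter windows of the same length, 12.8% held the TATA box letters, 23.7% the GC box letters and 19.9% the CCAAT box on either strand.

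Each class had its own set of the 5 genes. Hair cells were high in Calb1, Calb2 and Pvalb, neurons in Pvalb, epithelium in Calb1 and 1 cluster of the stroma in Calb2. Some other stromal clusters were high in S100b, and glia in S100b and S100a6. The stromal clusters led by Ptgds and by Clec3b were at only 251 and 218 CPM of S100b. Against all other cells S100b was not past 2-fold in stroma (log2 ratio 0.25) or glia (0.61). Macrophages (714 cells) and B cells (428 cells) were taken as classes in which Calb1, Calb2 and Pvalb should be absent, and a level at or under theirs was read as background. Scrublet, a doublet caller, marked 7.00% of the macrophages. The parts of free RNA, doublets and their own expression in the macrophage levels were not tested.

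**Figure D1:**
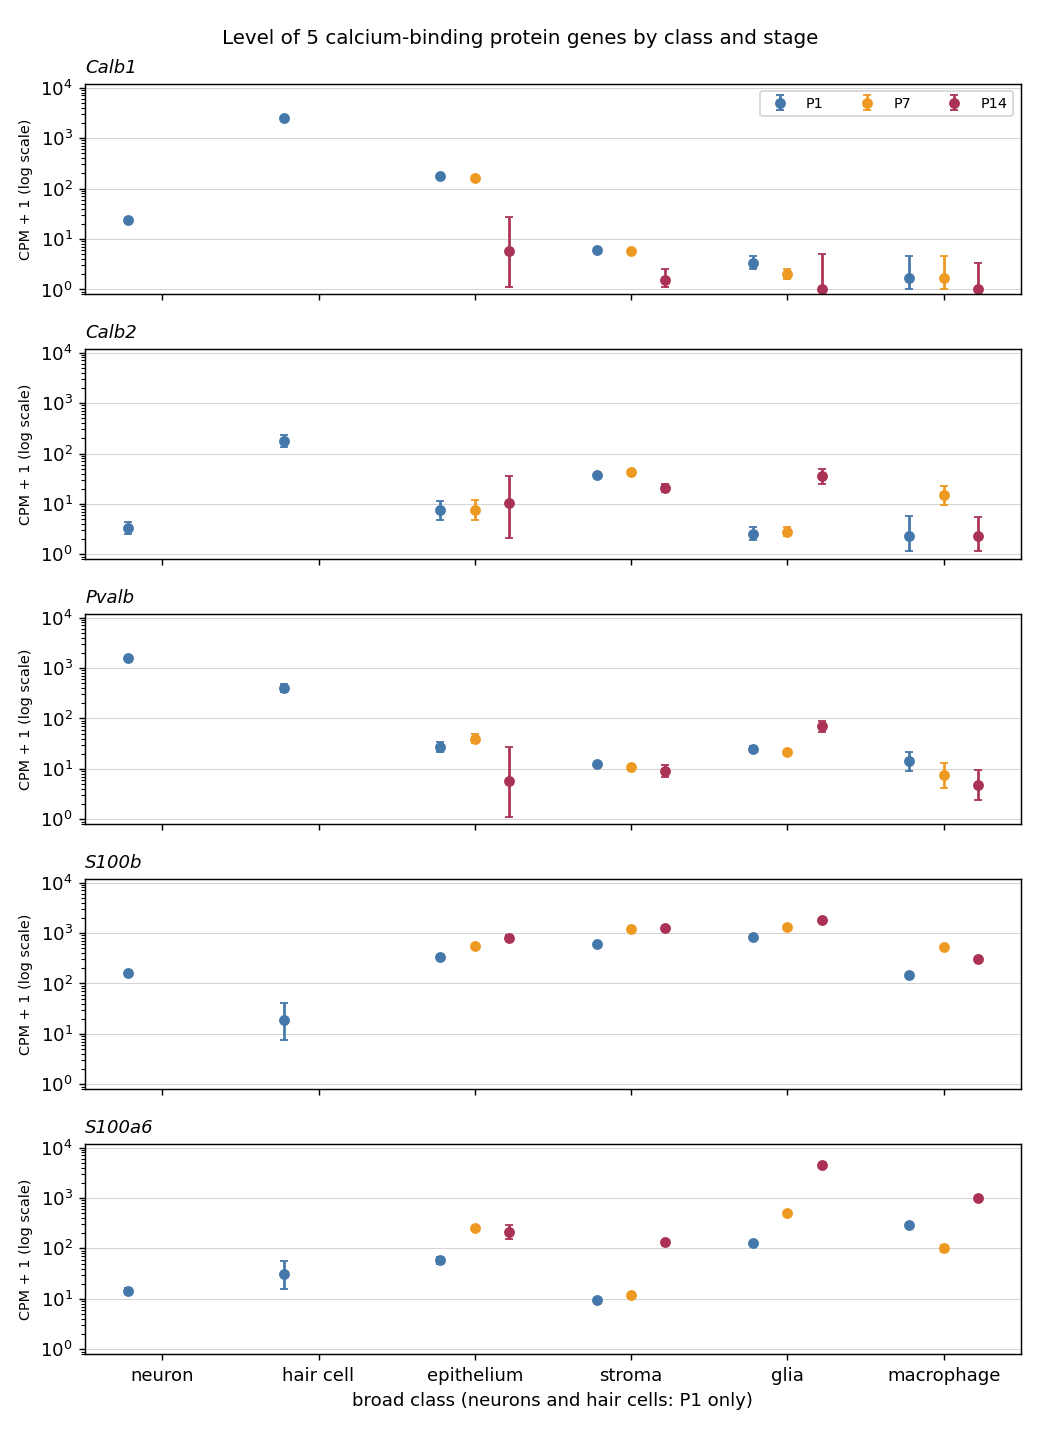
Level of each gene by broad class and stage, as CPM plus 1 on a log axis, with points for P1, P7 and P14 and bars for exact 95% Poisson intervals (counting error only). Calb1 was 2474 CPM in hair cells and 174 and 159 CPM in epithelium at P1 and P7, Pvalb was 1555 CPM in P1 neurons, and S100a6 in glia was 126, 501 and 4574 CPM at P1, P7 and P14.

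Calb1 was at 2474 CPM (2306 to 2650) in the 21 hair cells, from 812 UMIs, and at 10.4 CPM (9.82 to 11.02) in all other P1 cells. A UMI was found in 18 of 21 hair cells, and the median hair cell had 38 and the highest 112. Calb1 ranked 2 among 4965 genes by log2 ratio against all other cells, behind Acbd7. After each cell was thinned to 1000 UMIs, 71.4% of hair cells (47.8 to 88.7) still had a Calb1 UMI, and 85.7% (63.7 to 97.0) did before thinning. No macrophage had one after thinning at P1 (0% to 2.02%), and 0.549% did before, at median depths of 14482 UMIs in hair cells and 7541 in P1 macrophages. These hair cells had Otof, the vesicle release protein otoferlin, in 21 of 21 cells and Slc17a8, the vesicular glutamate transporter of inner hair cells, in 12. Slc26a5, the motor protein prestin of outer hair cells, was found in 1 cell and Ikzf2 in 0.

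The epithelium came next for Calb1, at 174 CPM (159 to 191) at P1 and 159 CPM (144 to 175) at P7, and these intervals overlap. At P14 a single UMI in 53 cells gave 4.76 CPM (0.121 to 26.5), below the interval at P7. The Calb1 UMIs sat in a minority of epithelial cells. At P1, 31.9% of cells (26.6 to 37.7) had one and the 28 of 285 cells with most Calb1 held 72.4% of the UMIs. At P7, 22.6% of cells (17.4 to 28.4) had one and the corresponding 24 of 235 cells held 87.6%. Thinned shares were 15.4% (11.3 to 20.1) at P1 and 12.02% (7.93 to 17.2) at P7, and at P14 none of 50 cells had a UMI (0% to 7.11%).

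In the P1 neurons Calb1 was at 22.6 CPM (20.005 to 25.4), with 95 of 482 cells positive before thinning and 1.66% (0.719 to 3.24) after. The 48 neurons with most Calb1 held 82.9% of the 281 UMIs. Stroma had 4.93 CPM at P1, 4.76 at P7 and 0.548 at P14, and glia 2.41, 1.009 and 0. Within the stroma the highest value was 23.5 CPM (18.9 to 28.8), in the P7 cells of the cluster led by Isyna1 and Col9a3, against 3.96 CPM (3.1 to 4.99) in its P1 cells. Hair cells, 0.292% of the UMIs of the P1 library, held 41.1% of its Calb1 UMIs. Over all kept cells Calb1 was at 17.6 CPM at P1, 7.72 at P7 and 0.343 at P14. Without hair cells, neurons and epithelium it was at 4.24 (3.84 to 4.67), 3.63 (3.25 to 4.04) and 0.263 CPM (0.0543 to 0.769), the last from 3 UMIs.

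Calb2 had 89.6% of its UMIs in stroma, with 92.5% at P1 and 90.5% at P7, while at P14 the stroma held 44.4% of them and 46.9% of all UMIs. The stroma as a whole was at 37.3 CPM at P1, 42.3 at P7 and 19.5 at P14, and the highest stromal level was in 1 cluster of 1489 cells led by Aldh1a2, the retinaldehyde dehydrogenase of retinoic acid synthesis, and by Calb2 itself. That cluster was at 219 CPM (209 to 230) at P1 and 335 CPM (319 to 351) at P7, with intervals that do not overlap. It had a Calb2 UMI in 61.0% of cells at P1 and 69.4% at P7, and in 18.7% and 25.8% after thinning. Of its cells, 831 were from P1, 657 from P7 and 1 from P14. The clusters led by Clec3b and Rarres1 (69.5 CPM) and by Clu and Calml4 (52.9 CPM) followed. The rest of the stromal clusters ranged from 1.37 to 33.6 CPM.

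Outside the stroma, Calb2 was high in the hair cells, at 177 CPM (134 to 228) from 58 UMIs, with 16 of 21 cells positive before thinning and 19.0% (5.45 to 41.9) after. P1 neurons had 2.33 CPM (1.56 to 3.35), with a UMI in 16 of 482 cells, against 1.33 CPM (0.161 to 4.79) in P1 macrophages. Epithelium stayed between 6.62 and 9.53 CPM at the 3 stages, and macrophages reached 13.9 CPM (8.62 to 21.3) at P7. In glia the level was 1.58 CPM (0.917 to 2.52) at P1 and 1.83 (1.31 to 2.50) at P7, and 34.5 (23.5 to 49.0) at P14, from 31 UMIs in 361 cells. Among glial cells of P14, 15 of the 23 with Calb2 also had Pvalb, beside 8.58% of the rest. S100a6 was in 22 of the 23 and in 84.0% of the rest. After thinning, Pvalb was in 14.3% of the P14 glia with Calb2 (2 cells) and 5.75% of the rest (18 cells). In the 14 P14 cells of an unnamed cluster led by Pnlip and Pcsk1, Calb2 was at 1132 CPM (890 to 1419), from 75 UMIs in 28.6% of the cells. Over all kept cells Calb2 was at 26.8 CPM at P1, 28.6 at P7 and 20.7 at P14.

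Pvalb marked the neurons, at 1555 CPM (1533 to 1577) in the P1 cells, where 473 of 482 cells had a UMI. The median neuron had 35.5 UMIs and the highest 148, and in CPM per cell the 10th percentile was 432, the median 1522 and the 90th percentile 2887. After thinning, 68.3% of P1 neurons (63.9 to 72.4) had a Pvalb UMI, against 0.552% of P1 macrophages (0.0140 to 3.04), at median depths of 24501.5 and 7541 UMIs. Pvalb ranked 7 among 6912 genes in neurons against all other cells. The 1 neuron of P7 had 119 Pvalb UMIs of 40804, and the 7 of P14 had 163 of 65952, with Pvalb in all 7.

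The hair cells had Pvalb at 399 CPM (334 to 473), in 18 of 21 cells before thinning and 28.6% (11.3 to 52.2) after. The 12 neuron markers summed to 969 CPM in the hair cells, with Syt1 at 0, against 11782 CPM in neurons, and their part in the Pvalb level was not tested. Epithelium was at 26.1 CPM (20.4 to 32.9) at P1, 38.8 (31.5 to 47.3) at P7 and 4.76 (0.121 to 26.5) at P14, the last from 1 UMI. Stroma was at 11.5, 9.70 and 8.22 CPM at P1, P7 and P14, beside 13.3 (8.09 to 20.5), 6.63 (3.18 to 12.2) and 3.84 (1.41 to 8.36) in macrophages. Glia had 24.0 CPM (21.2 to 27.1) at P1, 20.7 (18.9 to 22.7) at P7 and 69.0 (52.9 to 88.5) at P14, all above the macrophages of the same stage. Neuron markers summed to 417 CPM in glia over all stages and 124 CPM in stroma, and their part in these levels was not tested. In the stroma the cluster led by Gcg and Car3 was highest, at 41.2 CPM, with 24.9 (15.9 to 37.0) in its P1 cells and 43.2 (38.7 to 48.0) in its P7 cells.

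Over all kept cells Pvalb was at 189 CPM (187 to 192) at P1, 18.4 (17.6 to 19.3) at P7 and 33.4 (30.2 to 36.9) at P14. Neurons were 11.1%, 0.0425% and 0.565% of the UMIs of the 3 libraries and held 91.2%, 6.72% and 41.8% of the Pvalb UMIs. Without the neurons the level was 18.7 CPM (17.8 to 19.6) at P1, 17.2 (16.4 to 18.1) at P7 and 19.6 (17.1 to 22.3) at P14. The intervals of neighbouring stages overlap once the neurons are left out.

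**Figure D2:**
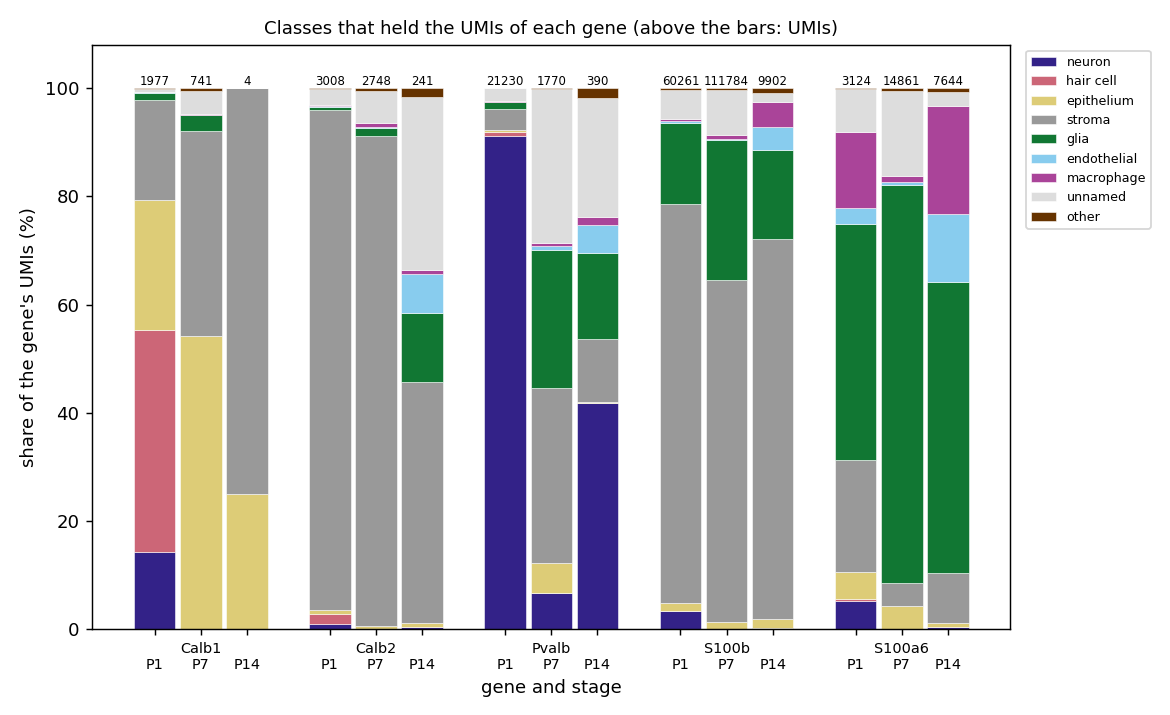
Share of the UMIs of each gene, in percent, held by each class at P1, P7 and P14, with the number of UMIs above each bar. Neurons held 91.2% of the Pvalb UMIs at P1 and 6.72% at P7, hair cells held 41.1% of the Calb1 UMIs at P1, and glia held 43.6%, 73.4% and 53.8% of the S100a6 UMIs at P1, P7 and P14.

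S100b was found in 72.4% of all kept cells before thinning and 41.9% after. Its highest level was in the stromal cluster led by Gcg and Car3, with the cartilage genes Cytl1 and Cnmd among its 10 leading genes, at 1918 CPM (1832 to 2008) at P1 and 2797 CPM (2760 to 2834) at P7. The P14 cells of the cluster led by Coch, the fibrocyte matrix protein cochlin, had 2137 CPM (2085 to 2190). The cluster led by Isyna1 and Col9a3 had 1555 CPM at P1 and 1414 at P7. At the low end of the stroma stood the Calb2-rich cluster, at 85.2 CPM (78.8 to 92.0) at P1 and 176 (165 to 188) at P7, so that the stromal clusters highest in Calb2 and in S100b were different ones. Summed over the stroma S100b was at 596 CPM at P1, 1202 at P7 and 1267 at P14. Different clusters made up the stroma at these stages. Of the 2928 stromal cells of P14, 99.9% were in 3 clusters, led by Coch, by Ptgds and by Clec3b, which held 17 cells of P1 and P7. The largest stromal cluster was the one led by Isyna1 at P1 and the one led by Aard and Dcn at P7.

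In glia S100b was at 828 CPM (811 to 846) at P1, 1322 (1307 to 1338) at P7 and 1809 (1722 to 1899) at P14, with thinned shares of 51.3%, 68.2% and 65.7%. The 4 glial clusters ranged from 984 to 1818 CPM. Epithelium had 340 CPM (318 to 362), 555 (527 to 585) and 800.4 CPM (684 to 931) at P1, P7 and P14. P1 neurons had 163 CPM (156 to 171), beside 143 (125 to 164) in P1 macrophages, and thinned shares of 13.7% (10.8 to 17.1) and 7.18% (3.88 to 11.97). Hair cells had only 6 UMIs, 18.3 CPM (6.71 to 39.8), below the P1 macrophages. Macrophages were at 517 CPM at P7 and 300 at P14 and B cells at 40.7, and a level at or under that of the macrophages of the same stage was read as background.

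Among the 5 broad classes S100a6 was highest in glia at each stage, at 126 CPM (120 to 133) at P1, 501 (491 to 510) at P7 and 4574 (4436 to 4716) at P14. The macrophages of P1 were above the P1 glia, at 287 CPM (260 to 315). Different clusters made up the glia at the 3 stages. At P1, 61.5% of glia were in the cluster led by Gas7 and Lgi4, at P7, 64.4% were in the cluster with Cldn19, Pmp2 and Mbp among its 10 leading genes, and at P14, 92.8% were in the cluster led by Mt3. The Cldn19 cluster was at 282 CPM (260 to 305) at P1 and 766 (751 to 782) at P7. The Gas7 and Lgi4 cluster was at 63.7 CPM (56.8 to 71.1) at P1 and 132 (116 to 149) at P7, and its 16 P14 cells had 34 UMIs, 1819 CPM (1260 to 2542). The dividing cluster led by Ube2c and Cenpw was at 115 (105 to 127) and 132 CPM (124 to 141). The Mt3 cluster, with the myelin genes Prx, Mag and Mbp also among its 10 leading genes, had 4712 CPM (4568 to 4859) at P14.

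The S100a6 UMIs of P1 and P7 glia came from a minority of cells. At P1, 27.3% of the 1862 glia had one and the 186 highest cells held 73.6% of the UMIs. At P7, 37.3% of 3476 had one and the 348 highest held 86.9%, with up to 284 UMIs in 1 cell. At P14, 84.8% of 361 had one and the 36 highest held 36.3%. Thinned shares were 8.28% (7.07 to 9.63), 14.3% (13.2 to 15.5) and 83.5% (79.0 to 87.3).

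S100a6 was also higher at P14 outside the glia. Stroma went from 8.66 CPM (8.01 to 9.36) at P1 and 10.9 (10.1 to 11.8) at P7 to 130 (121 to 140.1) at P14, where nearly all cells were in the 3 clusters named above and the level ranged from 72.5 to 245 CPM between them. Endothelial cells went from 25.5 and 44.1 to 618 (580 to 659), and pericytes and smooth muscle from 3.72 and 35.5 to 305 (199 to 447). Macrophages had 287, 100.7 and 978 CPM. B cells, nearly all of P14, had 21.4 CPM (14.4 to 30.5) at that stage. Epithelium was at 57.7 CPM (49.0 to 67.5) at P1, 254 (235 to 275) at P7 and 214 (156 to 287) at P14. Few epithelial cells held most of these UMIs. The 28 of 285 cells with most S100a6 held 90.4% at P1, and 24 of 235 held 90.8% at P7, with up to 144 in 1 cell. At P14, 5 of 53 held 88.9%. Glial markers summed to 1075 CPM in epithelium over all stages and 896 CPM in macrophages, against 12371 CPM in glia, and their part in the S100b and S100a6 levels of those classes was not tested. Hair cells had 10 UMIs of S100a6, 30.5 CPM (14.6 to 56.0), and P1 neurons 13.3 CPM (11.4 to 15.5). Over all kept cells S100a6 was at 27.8, 155 and 655 CPM at P1, P7 and P14, and without the glia at 17.4 (16.6 to 18.2), 53.2 (51.5 to 54.9) and 328 (317 to 339).

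**Figure D3:**
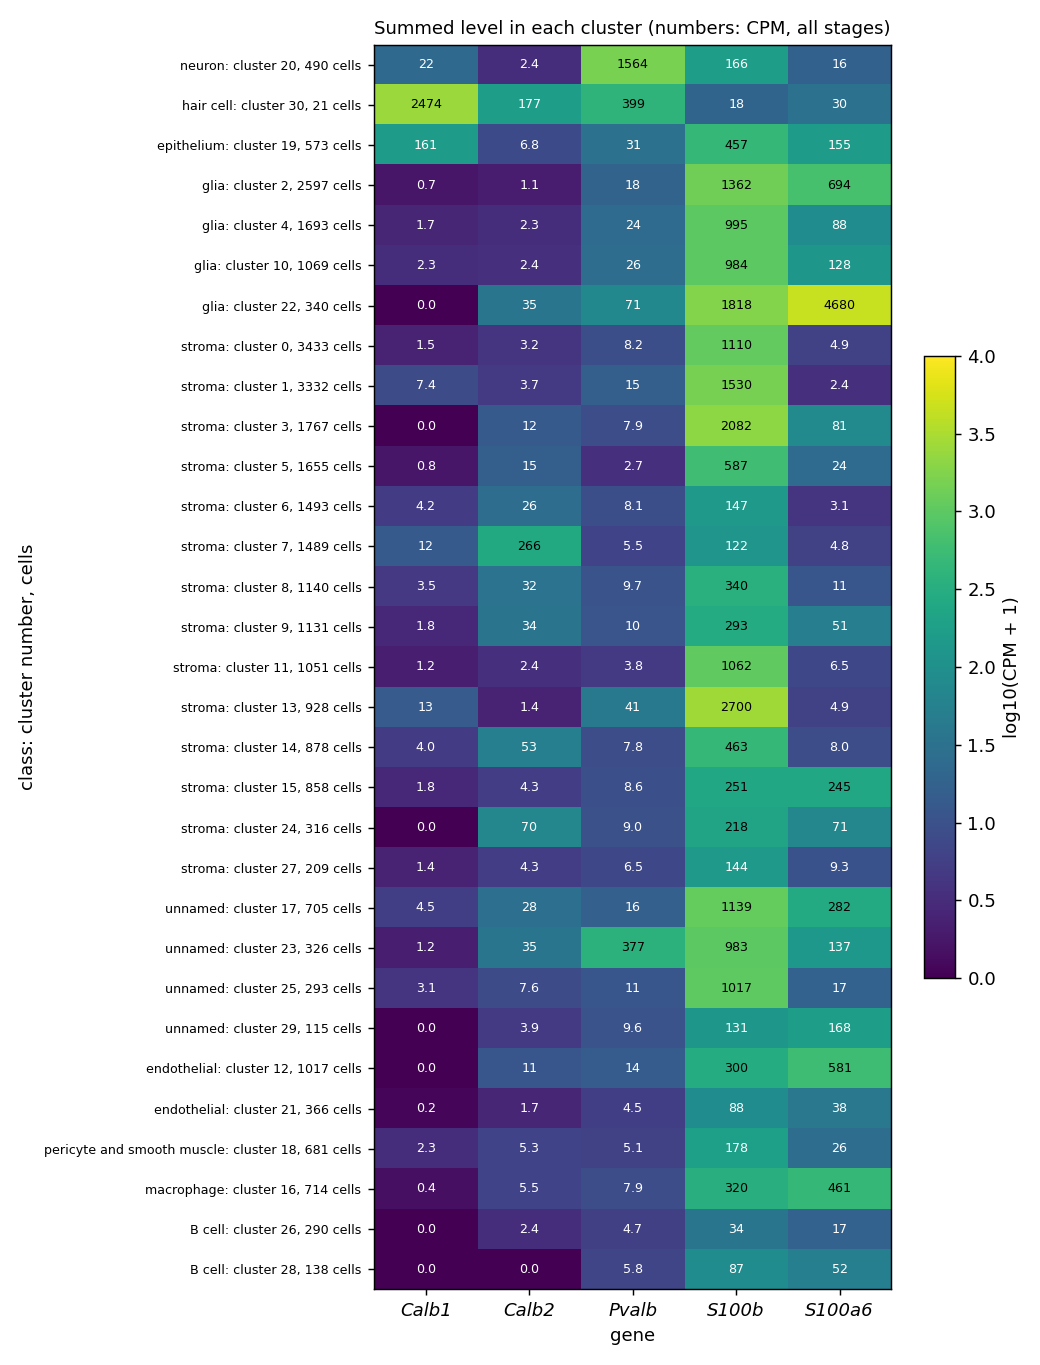
Summed level of each gene in each of the 31 clusters over all stages, with CPM printed in each cell and log10(CPM + 1) as the colour. Calb1 was highest in the hair cell cluster (number 30, 2474 CPM), Pvalb in the neuron cluster (number 20, 1564 CPM), S100b in the Gcg and Car3 stromal cluster (number 13, 2700.1 CPM) and S100a6 in the Mt3 glial cluster (number 22, 4679.9 CPM).

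Counted as past 2-fold where the log2 ratio of CPM, with 10 CPM added, was at least 1 in size, 4 of the 5 genes differed in neurons against all other cells, as did 22.7% of the 7809 genes with at least 10 CPM. Pvalb was higher (log2 ratio 5.81), and Calb2 (-1.65), S100b (-2.32) and S100a6 (-2.32) were lower. Nearly all neurons were of P1, and against the other P1 cells 3 of 5 passed, beside 20.1% of all genes, with S100a6 at 13.3 against 29.6 CPM (-0.76) no longer among them. In hair cells 5 of 5 differed, beside 33.7% of all genes, with Calb1 (7.05), Calb2 (2.33) and Pvalb (1.82) higher and S100b (-4.89) and S100a6 (-1.65) lower. Since neurons were in the comparison, the Pvalb ratio of the hair cells is set against 106 CPM in all other cells. All hair cells were of P1, and against the other P1 cells 4 of 5 passed, beside 30%. S100a6 was then at 30.5 against 27.8 CPM (0.10), and Pvalb at 399 against 188 CPM (1.04). Epithelium had 3 genes past 2-fold, beside 10.8%, with Calb1 higher (3.20) and Calb2 and Pvalb lower. Against other cells of the same stage Pvalb in epithelium was lower at P1, where the neurons were, and at P14, and at P7 it was at 38.8 against 17.9 CPM (0.81). Stroma had 4, beside 11.5%, with Calb2 higher (1.47) and Calb1, Pvalb and S100a6 lower. Within stages the ratio of Calb2 in stroma was 1.56 at P1, 1.62 at P7 and -0.10 at P14, and that of S100a6 was -2.02, -4.23 and -3.01. Glia had 4, beside 15.6%, with S100a6 higher (3.07) and Calb1, Calb2 and Pvalb lower. Within stages S100a6 in glia was higher at all 3 (2.32, 3.01 and 3.76), while Pvalb was lower at P1 (-2.67) and at 20.7 against 17.8 CPM (0.15) at P7 and 69.0 against 30.4 (0.97) at P14. Calb2 in glia was lower at P1 and P7, and at P14 it was at 34.5 against 19.5 CPM (0.59).

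Between stages over all kept cells, 3 of the 5 genes passed 2-fold from P1 to P7, beside 5.87% of all genes. Pvalb was lower at P7 (-2.81) and S100b (1.10) and S100a6 (2.12) were higher. From P7 to P14 only S100a6 (2.01) passed, 1 of 5, beside 13.2%. In epithelium S100a6 (1.96) was the 1 gene past 2-fold from P1 to P7, beside 6.29%, and Calb1 and Pvalb, each with 1 UMI at P14, were the 2 from P7 to P14, both lower, beside 21.3%. In stroma 0 of 5 passed from P1 to P7, beside 4.98%, with S100b just under the limit (1.00 after rounding), and S100a6 (2.75) passed from P7 to P14, 1 of 5 beside 14.8%, between stroma of different clusters. In glia S100a6 (1.91) passed from P1 to P7, 1 of 5 beside 4.96%, and Calb2 (1.91), Pvalb (1.36) and S100a6 (3.17) passed from P7 to P14, 3 of 5 beside 18.5%.

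**Figure D4:**
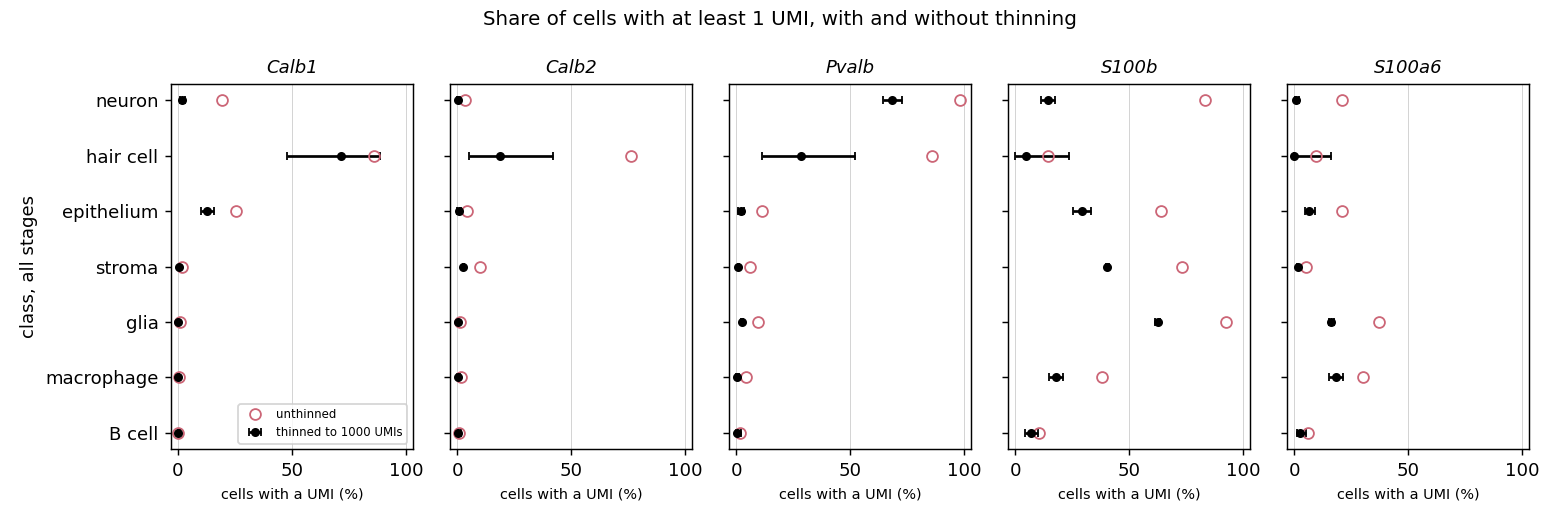
Share of cells with at least 1 UMI of each gene, in percent, by class over all stages, unthinned (open circles) and after thinning each cell to 1000 UMIs (filled circles, bars are exact 95% intervals). After thinning, 68.6% of neurons had Pvalb, 71.4% of hair cells had Calb1 and 62.4% of glia had S100b, while macrophages had Calb1 in 0% and Pvalb in 0.581% of cells.

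The members were also seen together in single cells. Of the 21 hair cells, 13 had UMIs of Calb1, Calb2 and Pvalb together and 1 had none of them. Of the 18 hair cells with Calb1, 14 had Calb2 and 16 had Pvalb, while 3 had S100b. Among the hair cells without Calb1, 2 had Calb2 and 2 had Pvalb. After thinning, Calb2 was in 13.3% of hair cells with Calb1 (2 cells) and 33.3% of the rest (2 cells). Pvalb was then in 33.3% (5 cells) and 16.7% (1 cell). With so few cells these shares do not tell whether the genes go together. Of the 95 P1 neurons with Calb1, 93 had Pvalb (97.9%, beside 98.2% of the rest) and 3 had Calb2 (3.16%, beside 3.36%). Of the 16 with Calb2, 15 had Pvalb (93.8%, beside 98.3% of the rest). In P1 epithelium 9 of the 91 cells with Calb1 had Pvalb (9.89%, beside 15.5% of the rest) and 3 had Calb2 (3.30%, beside 3.09%). In mouse spiral ganglion, Calb1, Calb2, Lypd1, Grm8 and Runx1 are used to tell subtypes of type I neurons apart, and Prph is used for type II neurons. The P1 neurons here had Prph in 99.0% of cells, Gata3 in 90.9%, Lypd1 in 77.6%, Runx1 in 56.6%, Grm8 in 27.6% and Pou4f1 in 3.11%. Found in nearly all of these cells, Prph did not divide them, and no neuron subtype was assigned.

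The genes whose levels followed each member most closely were found over the 30 clusters of at least 50 cells, which leaves out the hair cells, by Pearson's r of log2(CPM + 10). The clusters share libraries, so r is a description only. Calb1 went with Cldn9, a claudin of tight junctions (0.86), Stard10 (0.85) and Krt15, a keratin (0.85). Calb2 went with Aldh1a2 (0.82), the potassium channel gene Kcnk2 (0.81) and the transcription factor gene Osr2 (0.79), and Pvalb with the neuronal genes Cend1 (0.96), Tubb3 (0.95) and Stmn3 (0.95). S100b went with Rab20 (0.88), Mrps6 (0.85) and Slit2 (0.83), and S100a6 with the myelin genes Prx (0.89) and Mal (0.88). Between members r ran from -0.13 for Calb1 and S100a6 to 0.33 for Calb1 and Pvalb.

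Other genes of calcium handling were read from 5 lists of 76 genes, 73 of which were in the matrices and 39 of which had at least 10 CPM. In hair cells 8 of the 39 were past 2-fold higher and 13 lower against all other cells, beside 7.63% and 26.1% of all genes tested, with a median log2 ratio of -0.22 beside -0.28 over all genes. Cib2, a calcium- and integrin-binding protein needed for hair cell transduction, was at 2486 CPM against 31.2 CPM (log2 ratio 5.92), S100a1 at 1986 against 24.96 (5.84), Calm2, a calmodulin gene, at 9468 against 1082 (3.12) and S100a13 at 481 against 75.2 (2.53). Atp2b2, the plasma membrane calcium pump of the hair bundle, was at 91.4 against 11.4 CPM (2.24). The largest differences downwards were those of S100a10 (-4.89), S100a11 (-3.60), Rcn3 (-3.50) and S100a16 (-3.33). Against the other P1 cells, 8 were higher and 11 lower, beside 8.0% and 22.0%, with S100a1 at 6.30, Cib2 at 5.58, Calm2 at 3.03, S100a13 at 2.72 and Atp2b2 at 1.77 on the log2 scale, and S100a10 at -4.80, S100a11 at -3.28, Rcn3 at -2.96 and S100a16 at -2.91.

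In neurons 8 of the 39 were higher and 12 lower, beside 7.66% and 15.0% of all genes, with a median of -0.65 beside -0.18 over all genes. Atp2b2 was at 161 against 2.50 CPM (3.77), Ncs1, neuronal calcium sensor 1, at 157 against 11.5 (2.96), Cacnb3, a calcium channel subunit, at 162 against 33.9 (1.97) and Cib2 at 140.1 against 28.5 (1.96). S100a9 (-2.61), S100a8 (-2.31), S100a16 (-2.18) and Cib1 (-2.0) were lowest. Against the other P1 cells, 7 were higher and 9 lower, beside 8.57% and 11.6%. In epithelium 6 were higher and 3 lower, beside 3.36% and 7.43%, with a median of 0.11 beside -0.08, led by S100a1, at 460.1 against 16.9 CPM (4.13), Efhd1 (3.12), Cib2 (1.72) and Hpcal1 (1.57). Against other cells of the same stage, epithelium had 3 higher and 3 lower at P1, beside 3.19% and 7.84%. It had 8 and 1 at P7, beside 3.89% and 6.63%, and 8 and 6 at P14, beside 6.35% and 19.5%. In stroma 0 were higher and 7 lower, beside 4.39% and 7.07%, with a median of -0.12 beside -0.01. Within stages stroma had 0 higher and 8 lower at P1, beside 4.05% and 7.41%. It had 2 and 2 at P7, beside 5.33% and 5.94%, and 4 and 8 at P14, beside 7.57% and 8.57%. In glia S100a4, at 64.4 against 15.8 CPM (1.53), was the 1 gene higher and 8 were lower, beside 5.37% and 10.3%, with a median of -0.15 beside -0.08. Within stages glia had 1 higher and 6 lower at P1, beside 4.9% and 9.19%. They had 1 and 6 at P7, beside 5.88% and 10.0%, and 1 and 9 at P14, beside 6.38% and 13.7%.

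Between stages over all kept cells, 0 of the 39 were past 2-fold higher and 3 lower at P7 than at P1, beside 3.41% and 2.46% of all genes and with a median log2 ratio of 0.08 in both, namely S100a9 (-2.73), S100a8 (-2.42) and Atp2b2 (-1.31). At P14 against P7, 4 were higher and 2 lower, beside 7.89% and 5.34% and with a median of 0.12 beside 0.02, and the 4 were S100 genes: S100a8 (3.94), S100a9 (2.3), S100a4 (2.11) and S100a1 (1.06). Calr, the endoplasmic reticulum protein calreticulin (-1.19), and Cacnb3 (-1.05) were lower. S100a8 and S100a9 were also on the neutrophil marker list. Over all stages that list summed to 5022 CPM in macrophages, 2.73 CPM in stroma and 4.69 CPM in glia. Macrophages held 1.57% of the UMIs of the P7 library and 13.38% of those of the P14 library. The part of this difference in cell make-up in the S100 ratios was not tested. In glia at P14 against P7, 4 were higher and 2 lower, beside 8.17% and 10.4% and with a median of -0.10 beside -0.08. Efhd1 (2.12), S100a1 (1.2), Canx (1.17) and S100a4 (1.04) were higher and Calr (-1.39) and S100a11 (-1.26) lower. In epithelium 3 of the 39 were higher and 1 lower at P7 than at P1, beside 6.29% of all genes either way. At P14 against P7, 6 were higher and 5 lower in epithelium, beside 21.3%. There S100a1 was at 237, 560.0 and 2153 CPM at P1, P7 and P14, past 2-fold at both steps. Cib2 was at 187, 76.8 and 23.8 CPM, past 2-fold lower at both, the last value from only 53 cells.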

How the data were processed

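The authors aligned reads with Cell Ranger (3.1.0 by the matrix headers) and deposited 3 matrices of raw UMI counts, with a row for each gene and a column for each barcode. The genome build of the sources is rn6, and annotation and cell calling are not given in the sources used here. The sequences are from RefSeq (GRCr8). The kept cells held 112269286 UMIs in the P1 library, 96017007 in the P7 library and 11673483 in the P14 library.

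The members and lists were chosen with earlier results of these data known. Seurat 5.3.0 under R 4.3.3 log-normalized the cells and grouped them into clusters from 2000 variable genes less the members, with 10 principal components, resolution 0.8 and seed 0, libraries merged. Clusters were named from 16 marker lists of 130 genes (124 in the matrices). At least 3 markers past 2-fold were needed, 4 clusters stayed unnamed, and the naming rule was set after values were seen. Macrophages stand for the planned erythroid background, as no cluster could be named erythroid. Doublets were kept. Scrublet (scanpy 1.11.5) marked 4.85% of P1 cells and 6.14% of P7 cells, and with 0.0379% at P14 it did not work there. Ratios had 10 CPM added. The steps were tested on simulated data. Python 3.11.15, numpy 2.4.6, scipy 1.17.1, pandas 2.3.3 and matplotlib 3.10.9 were used.

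The genes named are the members, the listed calcium genes past 2-fold (up to 4 in each direction), the 3 genes most alike each member, the 3 leading genes of each class, and 11 subtype genes, of which Ocm is not in the matrices. Atp2b2 in hair cells and Cib2 in epithelium between stages were named after their values were seen. Some leading and most alike genes are not reported here. No other sample's columns were in the files.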

Additional observations from a re-analysis of the deposited data

Results flagged for a closer look

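Pvalb differed in opposite directions between P7 and P14 in 2 classes. In glia the log2 ratio of P14 to P7 was 1.36, from 20.7 CPM (18.9 to 22.7) to 69.0 CPM (52.9 to 88.5), and in epithelium it was -1.72, from 38.8 CPM (31.5 to 47.3) to 4.76 CPM (0.121 to 26.5). The difference between the classes was not tested, since each stage has 1 library. The epithelial value at P14 rests on 1 UMI in 53 cells, and the P14 glia were nearly all of the cluster led by Mt3, which had 5 cells at P7.

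Pvalb was also found in unnamed cells, which had no comparison of their own and counted among all kept cells and all other cells. The 4 unnamed clusters held 28.5% of the Pvalb UMIs at P7 and 22.1% at P14. In the unnamed cluster of 326 cells led by Pnlip and Pcsk1, Pvalb was at 377 CPM (358 to 397), against 7.86 CPM (5.51 to 10.9) in macrophages. The level was 318 CPM (289 to 348) in its 172 P1 cells, 403 (365 to 443) in its 140 P7 cells and 1222 (971 to 1519) in its 14 P14 cells, with a UMI in 61.0%, 77.1% and 64.3% of cells. Nefh, Pmp2, Hey2 and Cryab were among its 10 leading genes, S100b was at 983 CPM in it, and Scrublet marked 7.98% of its cells.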

How the results depend on the processing

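No paired analysis was possible because each stage has 1 library and the labels give no replicate numbers. Of 105 counts of members past 2-fold under 12 alternatives, 94 stayed within 1.5 times and 11 moved. With the mean of the CPM of each cell, epithelium had 1 gene past 2-fold against all other cells and glia 2. With 1 CPM added in place of 10, P14 against P7 had 2 over all cells and 3 in stroma, and P7 against P1 had 1 in stroma. With cells thinned to 1000 UMIs, epithelium had 1 from P7 to P14 and 1 against all other cells, and glia 2 against all other cells. With a mitochondrial limit of 10%, stroma had 1 from P1 to P7 and glia 2 against all other cells, and no cluster of hair cells was found, so they gave no value. Without the cells marked by Scrublet, stroma had 1 from P1 to P7. The cause was not tested. Of 525 single log2 ratios, 264 moved beyond their counting interval and none that was past 2-fold changed sign. Counting the cluster led by Pnlip and Pcsk1 with glia, and setting each class against other cells of its own stage, were alternatives chosen after seeing the data. In the latter, of 11 counts 9 stayed within 1.5 times, and glia had 2 genes past 2-fold at P7 and 2 at P14. The genes that passed were not all the same. Within stages S100b passed in stroma (1.39) and glia (1.23) at P14, both higher, and in epithelium at P7 (-1.07). S100a6 passed in epithelium at P14 (-1.58). Of 55 ratios, 7 stayed within their counting interval and 41 moved beyond it. A further 7 that were past 2-fold turned. They were S100a6 in hair cells (0.10), Pvalb in epithelium at P7 (0.81), Pvalb in glia at P7 (0.15) and P14 (0.97), Calb2 in glia at P14 (0.59), and Calb1 (0.054) and Calb2 (-0.10) in stroma at P14. The neuron class ranged from 227 to 761 cells over the limits and clustering settings. Class assignment per cell kept 65.4% of epithelial and 81.0% of hair cells in their class. The P14 library, with 1614.5 UMIs per median cell, limits what can be seen at that stage, as do the 53 epithelial cells of P14 and the 21 hair cells.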

Other observations

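Of the 2 endothelial clusters, the one led by Slco1a4 and Vwf, mostly of P14, had S100a6 at 581 CPM and the one led by Plvap and Cldn5 had 38.4 CPM.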
